A study of Oryctolagus cuniculus with 4 samples.

Results

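The insulin-like growth factor (IGF) axis was examined in rabbit blastocysts as a list of 10 genes, which were the ligands IGF1 and IGF2, the receptors IGF1R and INSR, the docking protein IRS1, the binding proteins IGFBP2, IGFBP3 and IGFBP4, and the RNA-binding proteins IGF2BP2 and IGF2BP3. Probes were assigned to these genes by the array's gene name column, by their accessions or gene identifiers, or by a gene named in their description. In this way 8 of the 10 genes were found, with 16 of the 43603 probes on the array; IGF2 and IGFBP3 were not analysed here. The samples were 8 pools of New Zealand White blastocysts recovered at day 6, 4 of parthenotes and 4 of in vivo fertilised embryos. Parthenotes came from oocytes that were activated by electrical pulses and chemical treatment without sperm and were then transferred to the oviducts of recipient does. Fertilised embryos came from inseminated does. Blastocysts of both groups were flushed from the uterine horns. Each pool contained several embryos, so that a pool and not an embryo was the replicate. Each of the 4 two-colour arrays set a Cy3-labelled parthenote pool against a fertilised pool in Cy5, with no dye swap and with the 4 arrays on a single slide. Dye and embryo type therefore cannot be told apart in any of the values below.

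IGF1 and IGF2 are secreted growth factors, and both act through the IGF1 receptor, a tyrosine kinase related to the insulin receptor. The activated receptors phosphorylate docking proteins such as IRS1, which pass the signal to the PI3K and AKT branch and to the MAPK branch. Secreted binding proteins hold the ligands in the extracellular fluid and limit or prolong their access to the receptors, and the IGF2BP proteins bind mRNAs, that of IGF2 among them, and affect their stability and translation. In the preimplantation embryo, insulin and IGF1 are known to act on glucose uptake, cell number and survival, and the ligands reach the embryo from maternal tract secretions as well as from the embryo.

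The probes were 60 bases long, and those on which the results turn are printed 5′ to 3′. The first is the brightest IGF1 probe, with the stretch common to the 5 IGF1 probes in capitals; those 5 overlapped one another by 56 to 59 bases, so that they came close to a single measurement of IGF1. The pair of IGF1R probes and the IRS1 probe follow, because they carried the receptor and docking protein results. The last pair, for IGF2BP2 and IGF2BP3, aligned over all 60 bases, with the 15 bases that differed between them in capitals and 45 identical bases (75%), and they show how close the RNA-binding protein probes were to each other.
IGF1 A_04_P002919: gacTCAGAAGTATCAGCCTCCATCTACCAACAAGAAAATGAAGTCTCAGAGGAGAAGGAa
IGF1R A_04_P078052: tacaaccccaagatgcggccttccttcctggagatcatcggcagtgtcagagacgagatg
IGF1R A_04_P033572: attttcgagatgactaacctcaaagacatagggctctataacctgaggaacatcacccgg
IRS1 A_04_P084297: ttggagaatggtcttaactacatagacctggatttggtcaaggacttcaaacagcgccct
IGF2BP2 A_04_P097208: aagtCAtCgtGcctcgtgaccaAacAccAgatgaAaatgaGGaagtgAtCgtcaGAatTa
IGF2BP3 A_04_P081068: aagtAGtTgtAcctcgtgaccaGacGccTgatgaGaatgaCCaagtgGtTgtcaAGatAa
The array's annotation, which does not name its genome build, placed the IGF1 probe across chr4:81694143-81695727 on the minus strand, a span of 1585 bases, longer than the probe itself. It placed the IRS1 probe at chr7:168540764-168540823 on the minus strand, the IGF2BP2 probe at chr14:79976240-79976299 on the plus strand and the IGF2BP3 probe at chr10:8400892-8400951 on the minus strand. It gave no position for the IGF1R and INSR probes.

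Values are log2 ratios of parthenote over fertilised signal within an array, so that a negative value is a lower signal in parthenotes, and errors are SDs over the 4 arrays. A probe was called when its mean ratio differed from 0 in limma with a Benjamini-Hochberg adjusted p under 0.05 over the 43595 probes tested. By this test 4 of the 16 probes were called (25%), beside 20.6% of all probes tested. They were 3 probes lower in parthenotes, beside 11.1% of all probes, and 1 higher, beside 9.53%. With the brightest probe standing for each gene, IGF1R and IGF2BP3 were lower and IRS1 was higher, whereas IGF1, INSR, IGFBP2, IGFBP4 and IGF2BP2 did not pass; these 3 of 8 genes (37.5%) stand beside 23.9% of all named genes. A signal well above background in both channels of every array was found for 12 of the 16, beside 55.4% of all probes, and 3 of these 12 were called (25%), beside 29.5% of all such probes. Without adjustment 10 of 16 had a limma p under 0.05, beside 36.6%, and the 5 overlapping IGF1 probes were among these 10. After adjustment the share of called probes (25% beside 20.6%) was near that of the array as a whole. The median log2 ratio was -0.34 over the 16 probes, 5 of them of IGF1, and -0.19 over the brightest probes of the 8 genes, beside 0 over all probes tested.

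**Figure D1:**
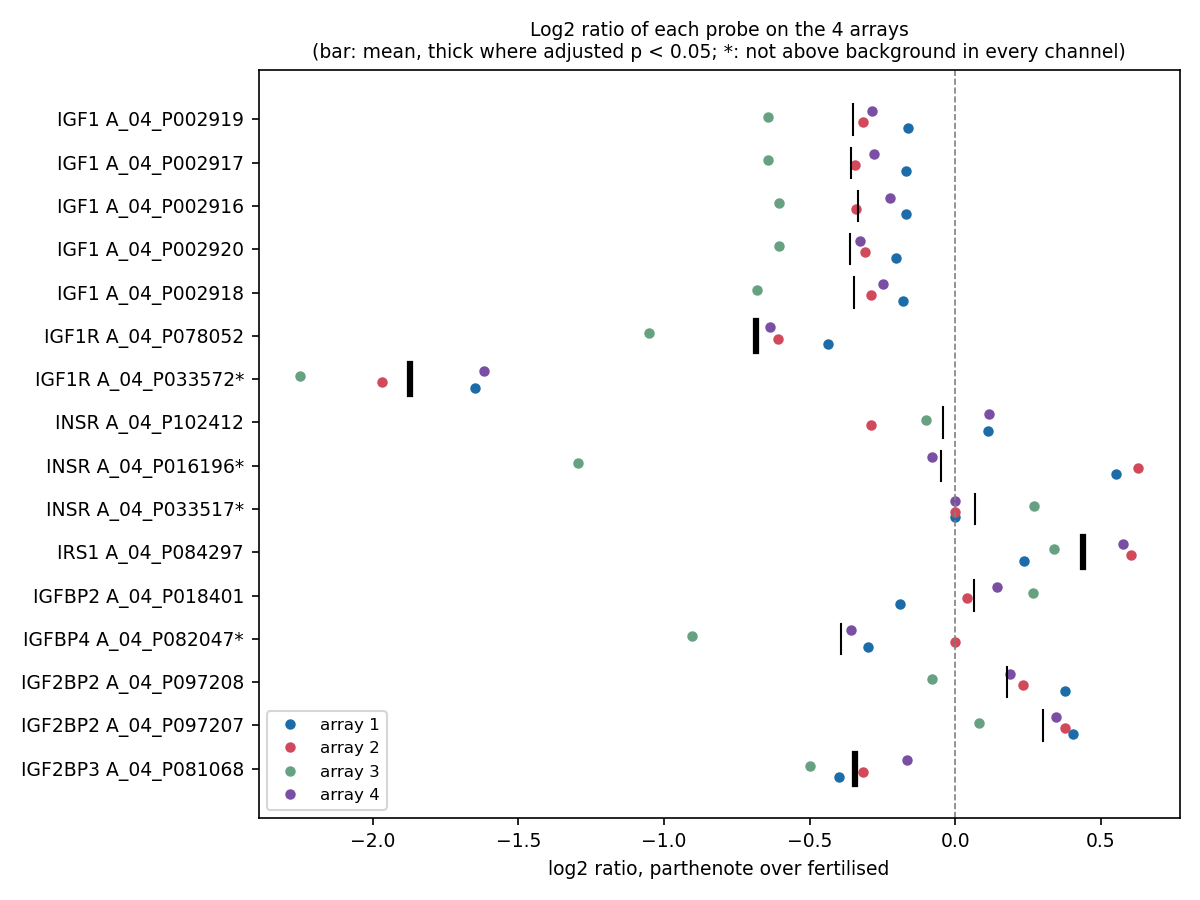
Log2 ratio of parthenote over fertilised signal (x axis) for each of the 16 probes of the IGF axis (y axis), with 1 point per array and a bar at the mean, thick where the limma adjusted p was under 0.05. The points of the 5 IGF1 probes and of both IGF1R probes lie below 0 on every array, the 3 INSR probes lie around 0, and the IRS1 points lie above 0; an asterisk marks a probe that was not well above background in every channel.

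IGF1, the growth factor whose signal through IGF1R promotes growth and survival, had slightly lower signals in parthenotes on each array, but did not pass the test. With the brightest of its probes, A_04_P002919, processed signals on arrays 1 to 4 were 1069, 1099, 725 and 805 in parthenotes, against 1195, 1369, 1131 and 981 in fertilised blastocysts. The parthenote signal was the lower of the pair on 4 of 4 arrays, although the ranges of the groups overlapped. The ratios were -0.16, -0.32, -0.64 and -0.29, with a mean of -0.35 ± 0.21 (SD, n = 4), a 1.28-fold lower signal (limma adjusted p = 0.0908). The other 4 probes, which shared most of their bases with it, had means from -0.36 to -0.33 and limma adjusted p from 0.061 to 0.111. In a bulk RNA measurement such as this, fewer cells of a type and less RNA per cell cannot be told apart. IGF1 was called as lower under 5 of 15 settings, among them when the background was removed by normexp and the dyes were levelled by loess (mean -0.33), and when dim probes were left out before the adjustment.

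IGF1R, the receptor for both IGF1 and IGF2, was lower in parthenotes with each of its probes. With A_04_P078052 the parthenote pools had signals of 194.8, 156.6, 106.5 and 130.9, and the fertilised pools had 264.0, 238.9, 221.0 and 203.3. Each parthenote pool lay below each fertilised pool. Such a separation of groups, in either direction, was found for 3 of the 16 member probes, beside 34.8% of all probes. The latter share includes probes that were not above background. The ratios were -0.44, -0.61, -1.05 and -0.63, with a mean of -0.68 ± 0.26 (SD, n = 4) and a 95% confidence interval from -1.04 to -0.33, a 1.61-fold lower signal (limma adjusted p = 0.0418). The call was lost when any array was left out, with adjusted p of 0.0767, 0.141, 0.0586 and 0.155 in limma without arrays 1, 2, 3 and 4 in turn, while the mean stayed between -0.77 and -0.56. The other probe, A_04_P033572, was dim. Its parthenote signals of 3.8, 3.6, 3.5 and 3.1 were not well above background on any array, and its fertilised signals of 11.9, 14.2, 16.7 and 9.6 were so on 2 of 4. It was called (limma adjusted p = 0.0115), but no fold is given because neither level was measured above background on every array. This call was lost without array 2 (limma adjusted p = 0.0628) and without array 4 (0.0612). After normexp and loess the mean of this probe was -0.28 and it was not called (limma adjusted p = 0.0804). With normexp and median centring its mean was -0.04 (limma adjusted p = 0.682).

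INSR, the insulin receptor, showed no detectable difference. With its brightest probe, A_04_P102412, the parthenote signals were 49.0, 32.4, 47.6 and 46.1 and the fertilised signals 45.4, 39.6, 51.0 and 42.5. The parthenote pool was the higher of the pair on arrays 1 and 4 and the lower on arrays 2 and 3. The mean was -0.04 ± 0.19 (SD, n = 4), with a 95% confidence interval from -0.31 to 0.23 and a limma adjusted p of 0.871, and its sign turned after normexp. A_04_P016196 had ratios from -1.30 to 0.63 and was well above background only in the fertilised pool of 1 array. A_04_P033517, which the array's description assigns to isoform B, was not well above background in any of the 8 channels.

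IRS1, the docking protein that insulin and IGF1 receptors phosphorylate, was the gene of the list that rose. With A_04_P084297 the parthenote pools had signals of 32.2, 32.0, 25.2 and 32.5 and the fertilised pools 27.3, 21.0, 20.0 and 21.8. The parthenote pool was the higher of the pair on each array, although the parthenote pool of array 3 lay below the fertilised pool of array 1. The ratios were 0.24, 0.60, 0.34 and 0.58, with a mean of 0.44 ± 0.18 (SD, n = 4), a 1.36-fold higher signal (limma adjusted p = 0.0472). The call was lost in limma without arrays 1, 2, 3 or 4 (adjusted p = 0.0676, 0.145, 0.134 and 0.166). After normexp and loess the mean was 0.13 and was not called (adjusted p = 0.107).

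**Figure D2:**
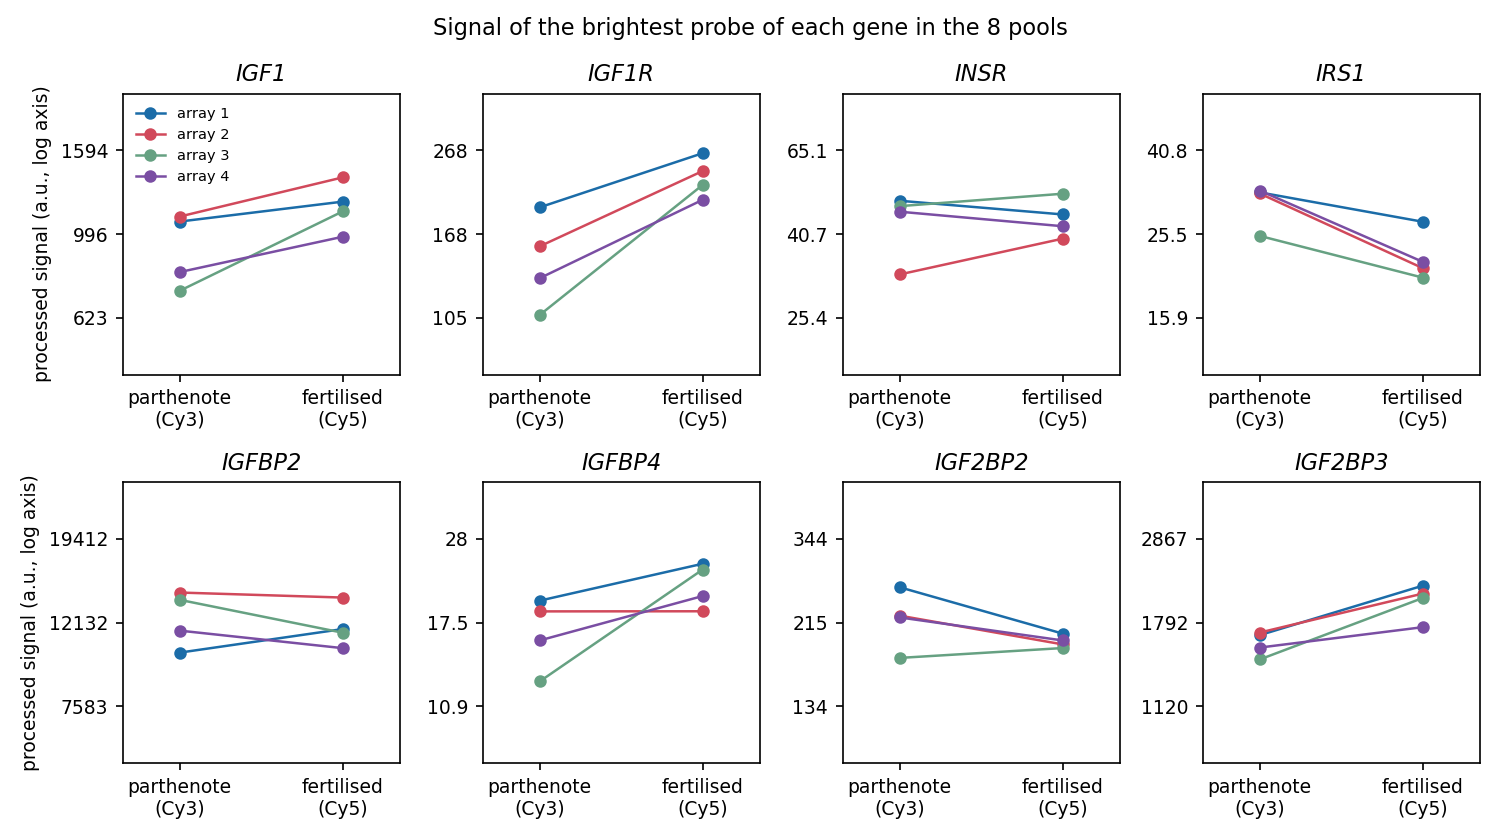
Processed signal (y axis, log scale, arbitrary units; each panel has its own range) of the brightest probe of each of the 8 genes in the parthenote pools (Cy3) and the fertilised pools (Cy5), with a line joining the pools that shared an array. The IGF1R and IGF2BP3 lines rise from parthenote to fertilised with no overlap of the groups, those of IRS1 fall, and those of INSR and IGFBP2 run both ways.

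The binding proteins did not pass the test. IGFBP2, a carrier of IGF1 and IGF2 and a known product of early embryos, had parthenote signals of 10251, 14358, 13782 and 11597 and fertilised signals of 11700, 13960, 11461 and 10511. These ranges overlapped almost entirely. The mean ratio was 0.06 ± 0.19 (SD, n = 4), with a 95% confidence interval from -0.20 to 0.33 and a limma adjusted p of 0.701. IGFBP4, a binding protein that mainly restrains IGF action, had parthenote signals of 19.8, 18.6, 12.6 and 15.8 that were not well above background on any array, and fertilised signals of 24.4, 18.7, 23.6 and 20.3 that were so on 4 of 4. Its mean was -0.39 ± 0.38 (SD, n = 4; limma adjusted p = 0.222), with a ratio of -0.00 on array 2, and no fold is given because the parthenote level was not measured above background.

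Of the RNA-binding proteins, IGF2BP3 was lower in parthenotes and IGF2BP2 did not pass the test. IGF2BP3, which binds IGF2 mRNA and is typical of fetal tissue, had signals of 1670, 1694, 1457 and 1558 in parthenotes and of 2204, 2108, 2057 and 1746 in fertilised blastocysts. The groups did not overlap. The ratios were -0.40, -0.32, -0.50 and -0.16, with a mean of -0.34 ± 0.14 (SD, n = 4), a 1.27-fold lower signal (limma adjusted p = 0.0472). Its call was lost in limma without arrays 1, 2, 3 or 4 (adjusted p = 0.137, 0.155, 0.124 and 0.0825), and with an intensity trend and robust estimation (adjusted p = 0.0571), and it was kept after normexp and loess (adjusted p = 0.0199). IGF2BP2, its close relative with a role in metabolism, had signals of 261.9, 223.3, 176.2 and 221.1 in parthenotes and of 201.9, 190.1, 186.2 and 194.3 in fertilised blastocysts with A_04_P097208. The parthenote pool was the higher on arrays 1, 2 and 4, with a mean of 0.18 ± 0.19 (SD, n = 4; limma adjusted p = 0.261). The second IGF2BP2 probe, A_04_P097207, overlapped the first by 40 bases and was higher in parthenotes on each array, with a mean of 0.30 ± 0.15 (SD, n = 4; limma adjusted p = 0.0666). Within arrays, the IGF2BP2 ratio exceeded the IGF2BP3 ratio by 0.78, 0.55, 0.42 and 0.35 on the log2 scale, a mean of 0.52 ± 0.19 (SD, n = 4) and positive on 4 of 4 arrays. The two-sided exact sign-flip p was 0.125, the smallest that 4 arrays allow.

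Across the members, 11 of 16 probes had the same sign on 4 arrays, 9 of them lower in parthenotes, beside 42.3% and 23.6% of all probes. Of those 9, 5 were the overlapping IGF1 probes. The shares over all probes include dim probes with a ratio of 0, which have no sign. Of the members, 12 of 16 were well above background in every channel, beside 55.4% of all probes, so the shares are not alike in detection. Array 3 gave the lowest ratio for 5 of the 8 genes with their brightest probe, namely IGF1, IGF1R, IGFBP4, IGF2BP2 and IGF2BP3. Among all probes well above background, 28.4% had their lowest ratio on this array. Without array 3 the mean ratio was -0.25 for IGF1, -0.56 for IGF1R and -0.29 for IGF2BP3, so that the direction of these 3 genes was kept. The genes whose signals over the 8 channels were most like those of IGF1R were LOC100346669 (Pearson r = 0.996), CRYZ (r = 0.992), a quinone reductase, and SOHLH2 (r = 0.991), a germ cell transcription factor. These were the highest of 6951 genes, and the channels shared arrays and, within a group, a dye. Each of the 3 was also called as lower in parthenotes, with mean log2 ratios of -0.77, -0.55 and -0.75. The correlation ran over both groups, so a difference between groups like that of IGF1R raises it.

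Other genes of insulin and IGF signalling were taken from a list of 72, of which 48 had a probe. Of these, 7 were higher in parthenotes, 8 were lower and 33 did not pass (31.25% called, beside 23.9% of named genes), and their median log2 ratio was 0.01. After normexp and centring on the median alone, with no levelling of the dyes over signal strength, 3 were higher and 28 lower, and IGF2R, GRB10, GSK3B, RPS6KB1 and SLC2A1 had means below 0. Without arrays 1, 2, 3 and 4 in turn, 9, 4, 4 and 0 genes of this list passed in limma, and without array 4 the unadjusted p was under 0.05 for 16 of 48.

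Of 3 further ligands and receptors, 2 were higher in parthenotes. IGF2R, the receptor that takes up IGF2 for degradation, had parthenote signals from 10001 to 12667 and fertilised signals from 5848 to 7248, which did not overlap. Its mean was 0.71 ± 0.15 (SD, n = 4, limma adjusted p = 0.0166), and its 3 probes were called. The call of its brightest probe was lost in limma without arrays 1, 2, 3 or 4 (adjusted p = 0.0504, 0.0608, 0.0738 and 0.0747). INSRR, the insulin receptor-related receptor, was called as higher (limma adjusted p = 0.0296), with parthenote signals from 21.7 to 33.5 and fertilised signals from 8.4 to 15.4 that were well above background on 2 of 4 arrays. Its mean log2 ratio of 1.15 became 0.20 after normexp and loess, where it was not called (limma adjusted p = 0.0675). INS, the insulin gene, had a mean of -0.00 ± 0.24 (SD, n = 4; limma adjusted p = 1). Of 7 further binding proteins and their regulators, 1 was called: STC2, an inhibitor of the protease that cleaves IGFBP4, had parthenote signals from 45.7 to 80.0 and fertilised signals from 130.4 to 227.8, and fell by 1.46 on the log2 scale (limma adjusted p = 0.0122). IGF2BP1, the remaining IGF2BP family member, had a mean of -0.13 (limma adjusted p = 0.286).

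Of 8 adaptors, GRB10 was higher and IRS4, GRB14 and SOS2 were lower in parthenotes. IRS4, a docking protein related to IRS1, was not well above background in any parthenote pool, with signals from 3.8 to 6.2, and had fertilised signals from 35.3 to 73.8. Its brightest probe was called (limma adjusted p = 0.0169) and its signal was at least 1.48-fold lower in parthenotes after normexp, loess and between-array scaling, a setting in which the call was lost (limma adjusted p = 0.054). Its other 4 probes were not called. GRB10, an adaptor that dampens insulin and IGF1 receptor signalling, rose by 0.48 on the log2 scale and its 5 probes were called (adjusted p = 0.0269 for the brightest). GRB14, a related adaptor with a like role, fell by 0.73, and SOS2, an activator of RAS, fell by 0.36. Of 17 genes of the PI3K and AKT branch, GSK3B (0.29), a kinase that AKT inhibits, and RPS6KB1 (0.21), a ribosomal protein kinase, were higher. The catalytic subunit PIK3CB (-0.34) and TSC1 (-0.48), a brake on mTOR, were lower, and 13 did not pass. RPS6KB1 was called with 1 of its 4 probes (limma adjusted p = 0.0496). The PIK3CB call was lost after normexp and loess (limma adjusted p = 0.0512). Of 6 genes of the MAPK branch, the kinase MAPK3 (-0.37) and the transcription factor ELK1 (-0.52) were lower. ELK1 had parthenote signals well above background on 2 of 4 arrays, and its mean was -0.11 after normexp and loess, where it was not called (limma adjusted p = 0.236). Of 5 genes of glucose uptake and storage, the glucose transporters SLC2A1 (0.50) and SLC2A8 (0.70) were higher. PTPN1, a phosphatase that acts on the insulin receptor and the measured gene among the listed brakes of insulin signalling, was not called.

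**Figure D3:**
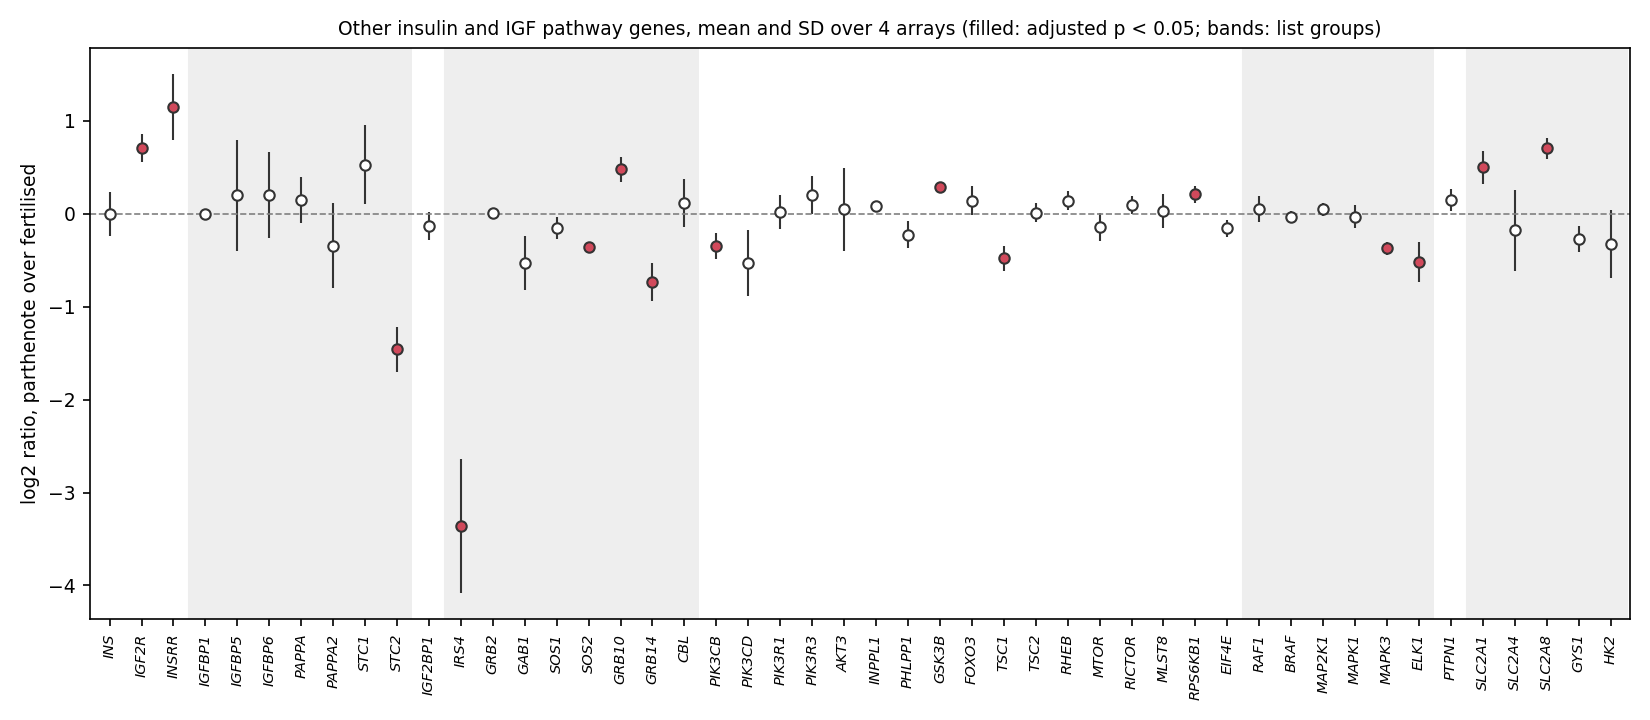
Mean log2 ratio of parthenote over fertilised signal (y axis; bars are SDs over 4 arrays) for 48 other genes of insulin and IGF signalling (x axis), filled where the limma adjusted p was under 0.05. Shaded bands separate, from left to right, ligands and receptors, binding proteins and their regulators, IGF2BP1, adaptors, the PI3K and AKT branch, the MAPK branch, PTPN1, and glucose uptake and storage; 7 filled points lie above 0 and 8 below, and IRS4 lies lowest with a parthenote signal that was not above background.

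Markers of cell types were measured beside these genes, and 14 of the 45 with a probe were called (31.1%), 13 of them higher in parthenotes, beside 23.9% of all named genes called and 11.6% called as higher. Of 6 measured markers of the secretory epithelium of oviduct and uterus, 4 were higher in parthenotes and none passed as lower. Their summed signal ran from 8848 to 32991 in parthenotes and from 4538 to 8200 in fertilised pools. Among them OVGP1, the oviductal glycoprotein, had a mean log2 ratio of 3.87 and SCGB1A1, uteroglobin, of 2.75. WFDC2, well above background in each channel, was not called, with a mean of 0.01 and a ratio of -1.52 on array 1. Its signals ran from 1577 to 9019 in parthenotes and from 3591 to 5946 in fertilised pools. ESR1 was not well above background in any channel. Of 7 markers of motile ciliated cells 2 were higher, with a summed signal from 199.5 to 472.9 against 111.9 to 186.6. The largest part of this sum was SPAG6 (101.9 to 261.7 against 70.2 to 145.9), which was not called (limma adjusted p = 0.0717). The 2 called, DNAI1 and RSPH1, were well above background in 1 and 0 of the 4 fertilised pools. FOXJ1, the defining transcription factor of these cells, was not well above background in any channel. Of 10 markers of stroma and smooth muscle 1 was higher, with a summed signal from 3664 to 5074 against 2342 to 3223, and COL1A1, PDGFRB, ACTA2 and MYH11 were not well above background in any channel. The leukocyte list had 3 of 8 higher (1269 to 1524 against 950 to 1035) and the erythroid list 1 of 3 (179.5 to 243.4 against 55.9 to 90.9). That erythroid gene was ALAS2, which held most of the sum (160.0 to 229.7 against 38.6 to 75.1). SLC4A1 had a negative ratio on each array (mean -0.38, not called), and EPB42 was not well above background in any channel. Among blastocyst markers, GATA3 and KRT8 of the trophectoderm and POU5F1 of the epiblast were well above background in each channel, with log2 ratios of 0.12, 0.58 and 0.21. GATA2 (-0.64) and TFAP2C (-0.31) of the trophectoderm and LIN28A (-0.22) of the epiblast, also well above background in each channel, had negative ratios, of which GATA2 was called. After normexp and median centring KRT8 was at -0.21 and POU5F1 at -0.52. The trophectoderm list had 1 marker higher and 1 lower of 5, the epiblast list 1 higher of 3, and 0 of 3 primitive endoderm markers were called (548.5 to 1285 in parthenotes, 872.4 to 1464 in fertilised pools). CDX2 was not analysed here. The part of these differences in the IGF axis values was not tested.

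**Figure D4:**
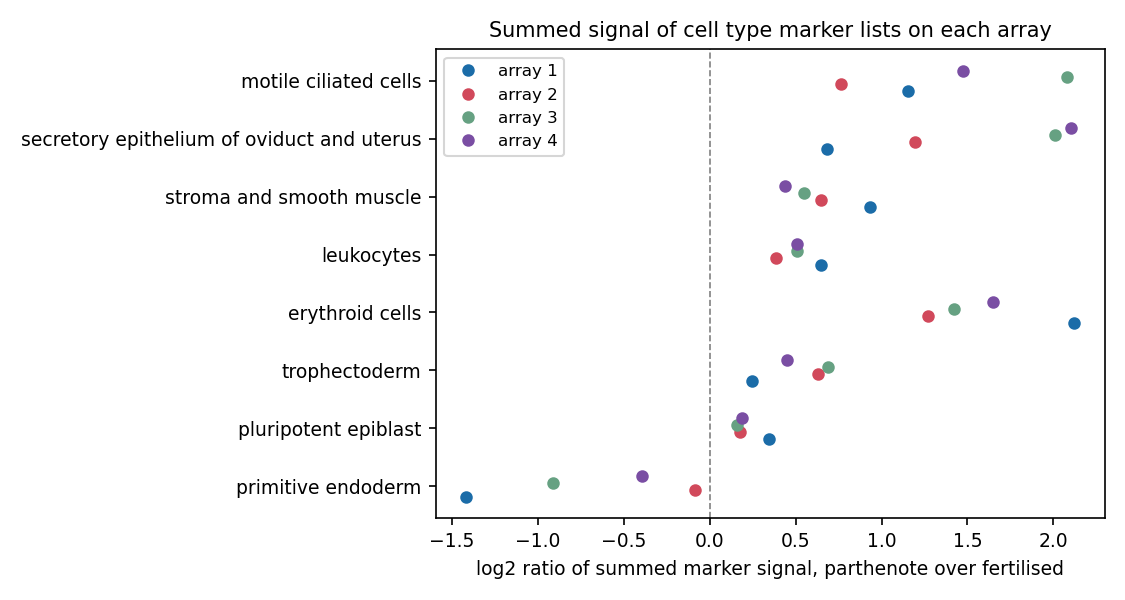
Log2 ratio of the summed marker signal of parthenote over fertilised pools (x axis) for 8 cell type lists (y axis), with 1 point per array. The ciliated, secretory, stromal, leukocyte, erythroid, trophectoderm and epiblast lists lie above 0 on each array. The ciliated and secretory lists lie highest on arrays 3 and 4 and the erythroid list on array 1. The primitive endoderm list lies below 0 on each array. Most of the stromal, erythroid, trophectoderm, epiblast and primitive endoderm sums came from TAGLN, ALAS2, KRT8, POU5F1 and APOA1, in that order. SPAG6 was the largest part of the ciliated sum, and OVGP1, SCGB1A1 and WFDC2 made up most of the secretory sum.

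**Figure D5:**
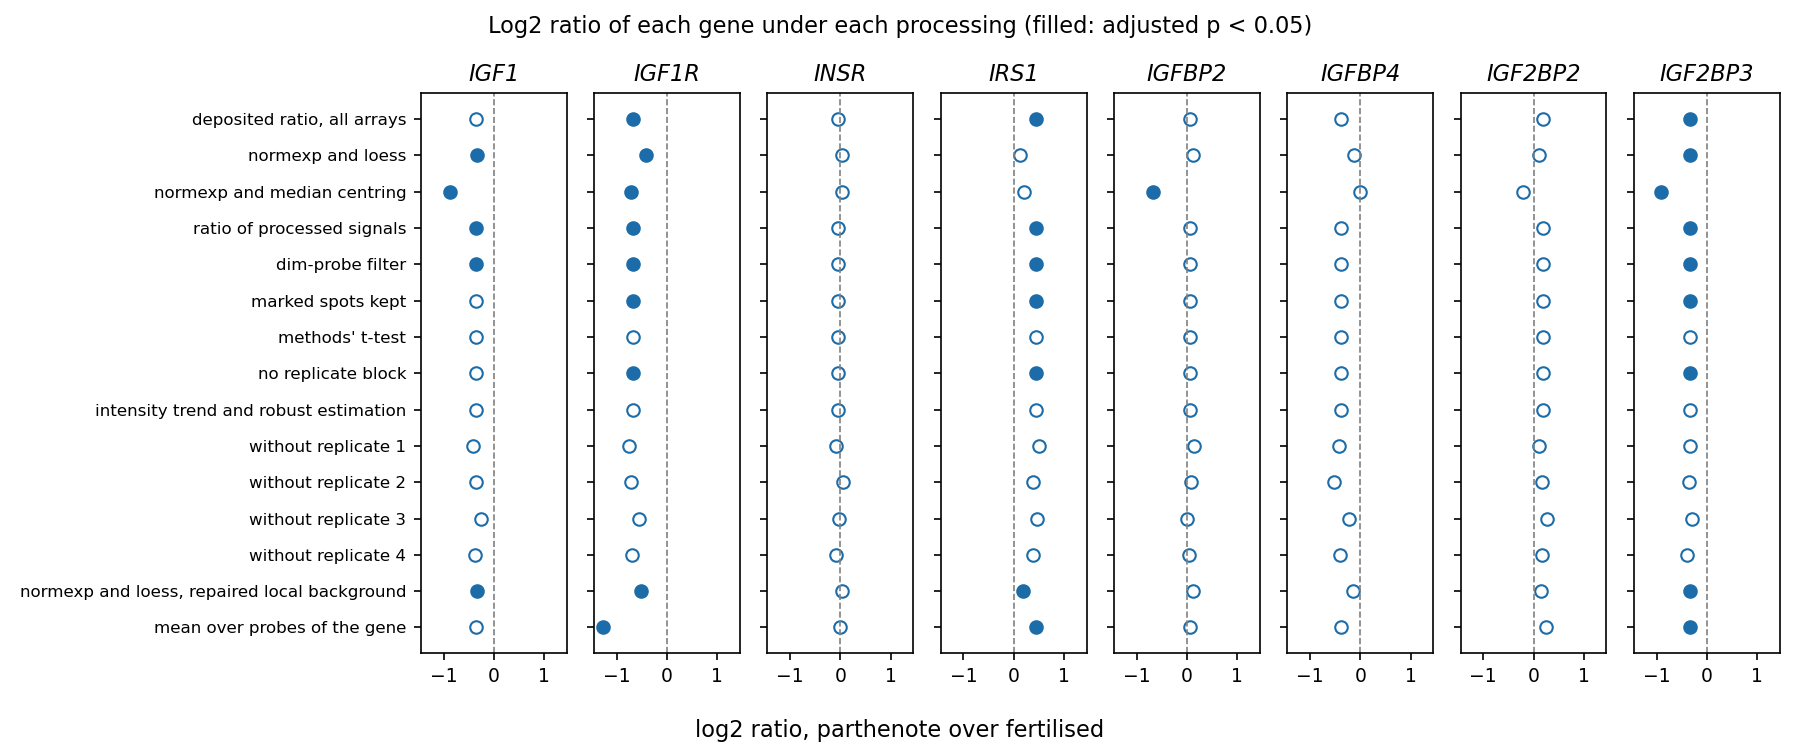
Mean log2 ratio of parthenote over fertilised signal (x axis) for the 8 genes under each processing or with an array left out (y axis), filled where the adjusted p was under 0.05. The points of IGF1, IGF1R and IGF2BP3 lie below 0 and those of IRS1 above 0 in each row, while those of INSR, IGFBP2 and IGF2BP2 lie on both sides; the last row averages all probes of a gene, the dim ones included.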

How the data were processed

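The deposited scanner files were made by the authors with Agilent Feature Extraction 10.10.1.1 from 4 two-colour rabbit arrays, each with 150 ng of total RNA per pool. They hold a log10 ratio of Cy5 over Cy3 per spot, corrected by the authors for background and dye, and processed and mean signals of each channel as intensity values; the deposited value table holds the same log10 ratio with its sign turned. The main value was the sign-turned ratio in log2 units, and is 0 where neither channel was above its noise. Signals quoted are processed signals, and their precision was limited by the number of arrays. The p-values of the main fit rest on the spread of ratios between the 4 arrays, with variances moderated over all probes by limma. Differences between pools, labelling and hybridisation cannot be told apart in that spread, and it holds no measure of a dye effect. Each array had 43803 non-control spots, of which 25805 to 26339 (parthenote) and 27508 to 27835 (fertilised) were well above background, and 26 to 48 marked as non-uniform or outliers were left out. Spots of a probe were averaged.

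Means were tested against 0 with limma 3.58.1 in R 4.3.3 (lmFit, eBayes), for probes with values on at least 3 arrays, with Benjamini-Hochberg adjustment and a threshold of 0.05. Names came from RefSeq accessions and gene identifiers matched to a RefSeq gene table (mOryCun1.1), or from the array's columns, for 23118 of 43603 probes. The brightest probe over the 8 channels stood for a gene. The bound for IRS4 used normexp (offset 50), loess and Aquantile scaling with the local background as deposited, which gave a lower bound than the repaired one. The channels of an array deviated together from their group means (r = 0.45, 0.48, 0.41 and 0.39), so the ratio was kept as a pairing of the pools on an array. What made them deviate together was not tested. On simulated data, limma recovered 20, 24, 35 and 45 of 50 probes changed 1.5-, 2-, 3- and 5-fold, with 10 false calls among 43595. The simulation had normal noise, no dye effect and far fewer changed probes than the 8996 called in the data. Its counts therefore do not give the sensitivity of the test here.

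A gene of the pathway list is not reported here and was left out of the list's counts. Named genes were the members, up to 3 called genes in each direction per pathway group, INS, IGF2R, IGF2BP1, selected markers, and the 3 genes most like the called member with the largest ratio. Other processing, background and filter settings were tried, as was each array left out. The members and lists were chosen with earlier results of these data known.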

Additional observations from a re-analysis of the deposited data

Results flagged for a closer look

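Values of single arrays were compared with the other 3 of their group for each member probe, over 48 groups of 4 values (parthenote signals, fertilised signals and ratios), and 3 had an array far from the others by Dixon's gap test, of a kind that chance flags in about 1 in 20 groups. The log2 parthenote signal of INSR (A_04_P102412) was 5.02 on array 2, below the other arrays at 5.53 to 5.62. The log2 ratio of the INSR probe described as isoform B (A_04_P033517) was 0.27 on array 3 and 0 on the others, where neither channel was above its noise. The log2 parthenote signal of IRS1 (A_04_P084297) was 4.66 on array 3, below the other arrays at 5.00 to 5.02.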

How the results depend on the processing

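Of the 16 member probes, 4 were called with the deposited ratio. The number was 7 after normexp and loess, 9 after normexp and median centring, 11 with the ratio of processed signals, 9 with the filter on dim probes, 1 with the methods' t-test after Benjamini-Hochberg adjustment, 1 with an intensity trend and robust estimation, 0 to 2 with an array left out (0 in limma without array 2 or array 4, with an unadjusted p under 0.05 for 4 and 4 probes), and 10 with a repaired local background, an alternative chosen after seeing the data. For the pathway list the 15 called genes became 31 with median centring, 7 with the methods' t-test and 0 to 9 with an array left out. Over all probes, 8996 were called (46.2% higher in parthenotes), against 31610 with median centring, 21399 with the ratio of processed signals (65.0% higher), 4435 with the methods' t-test and 1239 to 5735 with an array left out. Of the cell type markers 14 were called, against 36 with median centring, 28 with the ratio of processed signals, 8 with the methods' t-test, 25 with the repaired local background and 1 to 9 with an array left out. The calls of IGF1R (A_04_P078052), IRS1 and IGF2BP3 were lost with the methods' t-test and with an intensity trend and robust estimation. The paired ratio was also replaced by a fit with no replicate block, in which the 8 channels were separate samples: 4 member probes, 16358 probes (68.0% higher) and 23 markers were called. The INSR mean (A_04_P102412) turned to 0.036 after normexp and loess, 0.038 with median centring, 0.043 without array 2 (-0.093 to 0.043 over the arrays left out) and 0.033 with the repaired local background. IGFBP2 turned to -0.67 with median centring and to -0.0028 without array 3 (-0.0028 to 0.149 over the arrays left out), and IGF2BP2 (A_04_P097208) to -0.21 with median centring. Of 124 combinations of a member result and a setting, 88 kept direction and side of the threshold, 24 lost the call, 5 gained one and 7 turned. The causes were not tested, and dim probes (IGF1R A_04_P033572, IGFBP4 and 2 INSR probes) do not give a level in both groups.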
